A study of Mus musculus with 6 samples.

Results

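Fc gamma receptors bind the constant part of IgG antibodies and pass the signal of a bound immune complex into the cell. The 7 genes described here are the activating receptors Fcgr1, Fcgr3 and Fcgr4, the inhibitory receptor Fcgr2b, the signalling chain Fcer1g, the neonatal Fc receptor Fcgrt and the Fc receptor-like gene Fcrls. They were taken by gene symbol, as a receptor family and not by a threshold on their values, but with earlier results of these data known, from the 54532 gene identifiers of the count table. The source of RNA was epididymal white adipose tissue, an abdominal fat depot, from mice (Mus musculus) that had eaten high-fat diet for 16 weeks. The knockout group carried floxed PD-1 alleles and Lyz2-Cre (PD-1fl/fl Lyz2-Cre), and controls were littermates that carried the floxed alleles alone (PD-1fl/fl), with 3 libraries in each group. Lyz2-Cre is active in macrophages, neutrophils and other myeloid cells, so the deletion is not limited to adipose macrophages, and the Cre allele itself differed between the groups as well. The labels give neither the age of the mice nor whether 1 mouse supplied each library, and p-values here therefore reflect spread among libraries that may be technical.

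Total counts were 20108185 to 27225533 per library. Control replicate 2 did not have the profile of the labelled tissue: its 10 adipocyte markers summed to 704 CPM, that is counts scaled to a common library size, against 13342 to 55967 CPM in the other 5 libraries, and its 12 hepatocyte markers to 236136 CPM, against 127 to 8563 CPM. Results are therefore given with all 6 libraries and without control replicate 2. The mean log2(CPM + 1) of the hepatocyte markers was 1.71, 12.7 and 8.21 in control replicates 1 to 3. It was 1.16, 5.64 and 2.86 in knockout replicates 1 to 3. Control replicate 3, which was kept, thus also held a hepatocyte signal. Knockout replicate 2, kept as well, came next on this mean. The scaling used TMM, a method that corrects for the make-up of each library. Pdcd1, the targeted gene, had 19, 19 and 5 counts in knockout libraries and 13, 0 and 0 counts in control libraries, so these few reads did not show its loss. The 15 macrophage markers summed to 5117, 6284 and 1543 CPM in knockout replicates 1 to 3 and to 1457, 652 and 1185 CPM in control replicates 1 to 3. In bulk tissue, fewer cells of a type and less RNA per cell cannot be told apart.

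The activating receptors carry no long signalling tail of their own and sit in the membrane with the Fcer1g chain, whose tyrosine motif (ITAM) is phosphorylated by Src-family kinases and then recruits the kinase Syk. Fcgr2b carries an inhibitory tyrosine motif (ITIM) that recruits phosphatases such as the one encoded by Inpp5d, so the balance of activating and inhibitory receptors on a macrophage sets its threshold for antibody-coated targets. Fcgrt encodes a different kind of protein, an MHC class I-like chain that pairs with beta-2-microglobulin and returns IgG and albumin from endosomes to the cell surface. Fcrls is expressed by microglia and by some other tissue macrophages of the mouse.

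Fcgr2b, Fcgr4, Fcgr3 and Fcer1g lie together on chromosome 1 (build mm10, GENCODE vM21 gene models). Fcgr2b spans 170958617 to 170976547 on the minus strand, Fcgr4 spans 171018920 to 171029761 on the plus strand, Fcgr3 spans 171051174 to 171064935 on the minus strand and Fcer1g spans 171229572 to 171234365 on the minus strand. Fcgr1 (96282909 to 96293969) and Fcrls (87250758 to 87263738) are on the minus strand of chromosome 3, and Fcgrt (45092990 to 45103851) is on the minus strand of chromosome 7. The bases before the start site are shown for the 3 activating receptors, for the inhibitory receptor and for the chain, because the first 3 share a short motif there that the other 2 lack. All 7 genes were matched in RefSeq's table for GRCm38.p6, the same assembly as mm10. Each sequence is 250 bases, ends at the base before the RefSeq start site, and is written 5′ to 3′ on the gene's strand. GAGGAA or its reverse complement TTCCTC, a form read by the myeloid factor PU.1, is in capitals. The shorter GGAA within this form also stands in the Fcgr2b and Fcer1g windows, where it is not marked.
Fcgr1: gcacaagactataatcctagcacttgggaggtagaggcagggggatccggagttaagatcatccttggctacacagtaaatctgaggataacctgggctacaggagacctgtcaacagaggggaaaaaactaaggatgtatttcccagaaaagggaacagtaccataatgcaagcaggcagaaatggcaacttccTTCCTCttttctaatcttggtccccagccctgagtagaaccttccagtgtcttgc
Fcgr3: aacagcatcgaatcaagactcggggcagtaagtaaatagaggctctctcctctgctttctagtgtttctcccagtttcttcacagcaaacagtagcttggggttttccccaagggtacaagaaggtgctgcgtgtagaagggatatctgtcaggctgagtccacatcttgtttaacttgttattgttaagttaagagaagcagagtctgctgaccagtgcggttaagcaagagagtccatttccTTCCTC
Fcgr4: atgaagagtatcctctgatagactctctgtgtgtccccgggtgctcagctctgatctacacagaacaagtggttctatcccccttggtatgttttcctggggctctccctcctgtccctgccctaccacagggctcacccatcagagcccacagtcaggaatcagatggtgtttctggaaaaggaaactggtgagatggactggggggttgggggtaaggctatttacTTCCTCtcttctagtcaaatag
Fcgr2b: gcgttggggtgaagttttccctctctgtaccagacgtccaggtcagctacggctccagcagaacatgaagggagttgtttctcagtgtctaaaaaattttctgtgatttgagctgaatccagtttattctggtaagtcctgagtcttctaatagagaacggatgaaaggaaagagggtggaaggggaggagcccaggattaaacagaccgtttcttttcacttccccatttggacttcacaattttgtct
Fcer1g: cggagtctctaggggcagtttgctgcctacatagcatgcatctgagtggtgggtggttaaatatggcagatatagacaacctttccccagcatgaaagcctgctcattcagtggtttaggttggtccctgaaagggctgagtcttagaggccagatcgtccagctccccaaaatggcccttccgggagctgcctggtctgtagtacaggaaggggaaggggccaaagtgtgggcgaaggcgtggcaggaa

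The windows are chr3:96293970-96294219 (minus) for Fcgr1, chr1:171059404-171059653 (minus) for Fcgr3, chr1:171018676-171018925 (plus) for Fcgr4, chr1:170976072-170976321 (minus) for Fcgr2b and chr1:171234350-171234599 (minus) for Fcer1g. The Fcgr3 and Fcgr2b windows lie within the spans of the longer GENCODE models of these genes, and the ends of the Fcer1g and Fcgr4 windows reach into theirs. TTCCTC ended 50 bases before the start of Fcgr1, 17 bases before that of Fcgr4 and 1 base before that of Fcgr3. In Fcrls the motif stood as GAGGAA at positions -144 to -139. Counting 50 bases after the start as well, 4 of the 7 windows held the motif on either strand, against 28.3% of 32851 RefSeq promoter windows of the same 300 bases. Of 3 other motifs searched on both strands, TTCNNNGAA, the form bound by STAT proteins, stood in the Fcgr1 window and in 8.30% of all windows. An interferon response element form stood in the Fcgr4 window and in 3.44% of all windows. TTGCNNAA, a C/EBP form, stood in the windows of Fcgr3 and Fcgrt and in 10.8% of all windows. None of these matches overlapped the capitals. A match describes these letters and was not tested as a binding site.

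Among the activating receptors, Fcgr1, the high-affinity receptor that binds monomeric IgG, had the largest log2 fold change of the 7 members in edgeR with all 6 libraries, and Fcrls exceeded it in 6 of the 16 alternatives, limma-voom among them (2.41 for Fcrls, 2.28 for Fcgr1). It had 28.1, 41.0 and 5.78 CPM in knockout replicates 1 to 3, against 4.27, 2.68 and 4.51 CPM in control replicates 1 to 3. All 3 knockout libraries lay above all 3 control libraries, but knockout replicate 3, with 149 counts, was close to control replicate 3, with 123 counts. The mean was 25.0 ± 17.8 CPM in knockouts and 3.82 ± 0.993 CPM in controls (SD, n = 3 each), and the log2 fold change was 2.70 ± 0.73 (SE). With edgeR's quasi-likelihood test and Benjamini-Hochberg adjustment over 15928 genes this did not pass 0.05 (adjusted p = 0.560). DESeq2 called it, with an adjusted p of 0.0217 with all 6 libraries and 0.0393 without control replicate 2. Fcgr1 was the 1 of 7 members whose groups did not overlap with knockouts above, beside 9.54% of all tested genes.

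Fcgr3, the low-affinity activating receptor used by macrophages, natural killer cells and mast cells, had 148.0, 184.2 and 49.9 CPM in knockout libraries and 90.3, 16.9 and 28.2 CPM in control libraries. Knockout replicates 1 and 2 were above every control, and knockout replicate 3 lay between control replicate 3 and control replicate 1. Its log2 fold change, 1.50 ± 0.77 (SE), did not pass (edgeR adjusted p = 0.587), and it was 2.50 without control replicate 1. Fcgr4, an activating receptor of mouse myeloid cells for IgG2a and IgG2b, had 13.1, 21.2 and 2.17 CPM in knockouts and 5.24, 11.9 and 1.58 CPM in controls. Its highest control was control replicate 2, the library with the liver profile. The log2 fold change of Fcgr4 was 0.97 ± 0.99 (SE; edgeR adjusted p = 0.807) with all libraries and 1.85 ± 1.03 (SE; edgeR adjusted p = 0.629) without control replicate 2.

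Fcer1g, the chain that the activating receptors share, had 108.0, 158.5 and 42.6 CPM in knockout libraries and 48.4, 17.4 and 21.7 CPM in control libraries. As with Fcgr3, knockout replicates 1 and 2 were above every control, and knockout replicate 3 was below control replicate 1. The mean was 103.0 ± 58.1 CPM in knockouts and 29.2 ± 16.8 CPM in controls (SD, n = 3 each). The log2 fold change was 1.82 ± 0.62 (SE), with an adjusted p of 0.560 by edgeR and 0.134 by DESeq2. Fcer1g and Fcgr1 were the 2 members with an unadjusted edgeR p under 0.05, where 8.65% of all tested genes had one; without control replicate 2 it was 1 member, Fcgr1, where 8.96% of all genes had one.

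Fcgr2b, the inhibitory receptor of macrophages and B cells, had its highest level in a control library. It had 52.6, 73.4 and 36.8 CPM in knockout libraries and 122.2, 76.7 and 40.3 CPM in control libraries. The groups overlapped. As a share of total counts, control replicate 2 was at 42.7 CPM, below knockout replicates 1 and 2 at 63.3 and 91.7 CPM, so its place above them depends on the scaling. The mean was 54.3 ± 18.3 CPM in knockouts and 79.8 ± 41.0 CPM in controls (SD, n = 3 each), and the log2 fold change of -0.56 ± 0.49 (SE) did not pass (edgeR adjusted p = 0.767) and was -0.10 without control replicate 1. Control replicate 1, its highest library, also stood apart in neutrophil markers, 10 genes that summed to 14.6 to 31.3 CPM in knockout libraries and to 263.3, 54.7 and 19.6 CPM in control replicates 1 to 3. Ly6g, a defining marker of mouse neutrophils, had 46 counts in control replicate 1 and 0 counts in the other 5 libraries. Among controls, control replicate 1 was also the highest for Fcgr3 and Fcer1g, at 90.3 and 48.4 CPM. The part of neutrophils in these levels and in that of Fcgr2b was not tested. In control replicate 2 the 6 Kupffer cell markers summed to 332.3 CPM, against 6.60 to 26.7 CPM in the other libraries, with Clec4f, their defining lectin, at 0, 1.33 and 0.08 CPM in knockouts and 0, 122.1 and 7.04 CPM in controls; their part was not tested either. Some reads of Fcgr2b and Fcgr3 cannot be assigned with certainty: 166 of the 1733 windows of 50 bases in Fcgr3 transcripts also occur in Fcgr2b, a share of 9.58%.

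Fcgrt, the neonatal Fc receptor, had overlapping groups. It had 193.7, 213.6 and 323.7 CPM in knockout libraries and 227.1, 398.1 and 233.9 CPM in control libraries, with the highest level in control replicate 2. The log2 fold change was -0.23 ± 0.42 (SE; edgeR adjusted p = 0.909) with all libraries and 0.09 ± 0.31 (SE; edgeR adjusted p = 0.943) without that library. The high value there depends on scaling, since as a share of total counts Fcgrt in control replicate 2 was 221.4 CPM, below the 222.8 to 346.9 CPM of the other libraries. B2m, which encodes its partner chain, had a log2 fold change of -0.31 with all libraries and 0.34 without control replicate 2. Alb, which encodes its cargo albumin and is made by hepatocytes, had one of -7.74 with all libraries and -2.96 without control replicate 2.

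Fcrls had 32.7, 17.2 and 27.5 CPM in knockout libraries and 2.28, 1.43 and 18.8 CPM in control libraries. Control replicate 3 lay above knockout replicate 2, while the other 2 controls were below every knockout. The log2 fold change was 1.77 ± 0.99 (SE; edgeR adjusted p = 0.614), and it was 3.78 without control replicate 3 and 1.30 without control replicate 2. Unlike Fcgr1, Fcgr3, Fcgr4 and Fcer1g, Fcrls was not lowest among knockouts in knockout replicate 3.

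**Figure D1:**
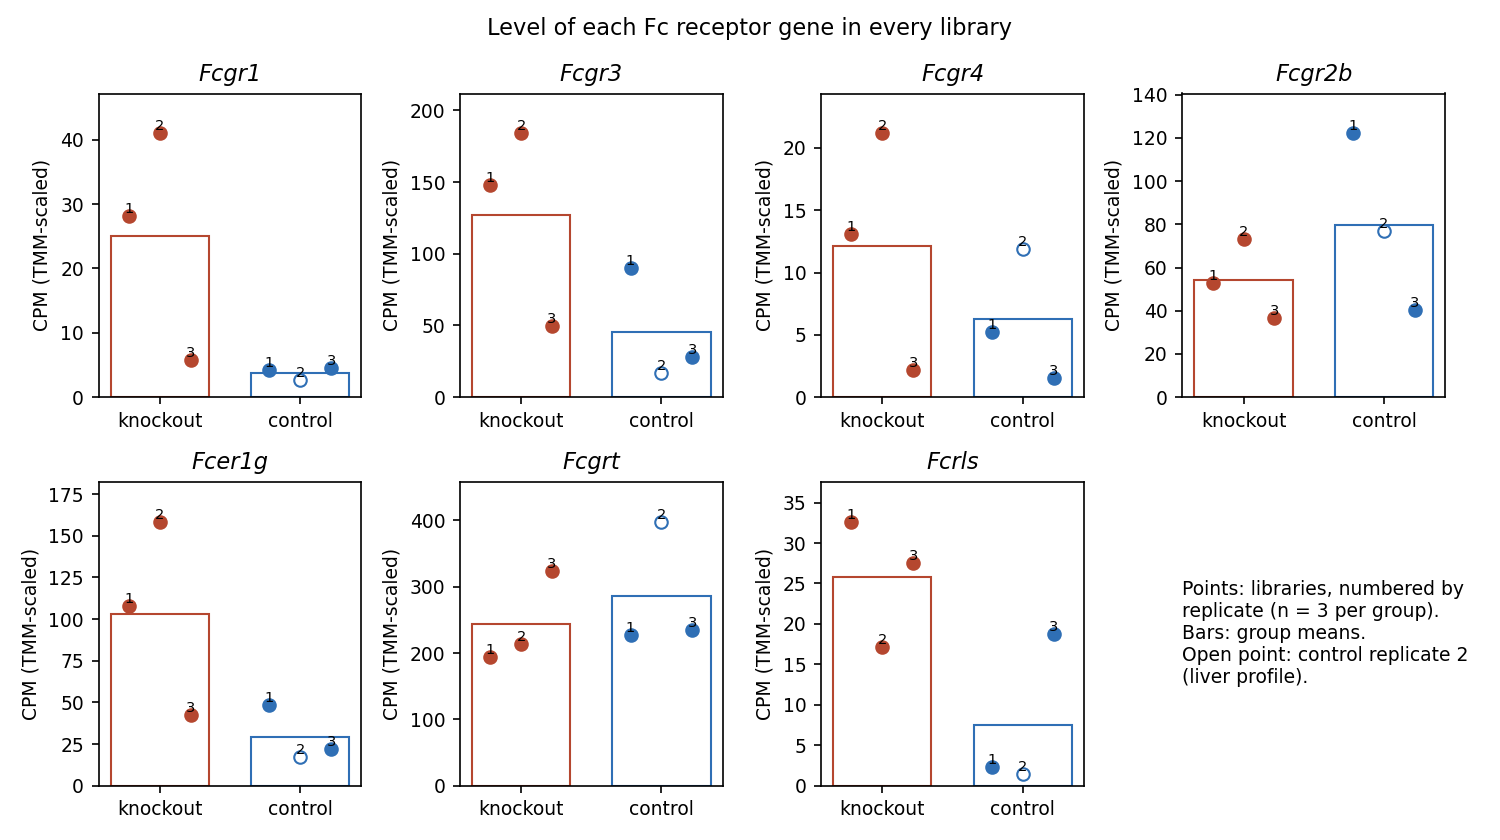
Level of each gene in every library, in TMM-scaled CPM on linear axes, with knockouts left of controls; points are libraries numbered by replicate and bars are group means (n = 3 each). Fcgr1 is the gene whose groups do not overlap, from 5.78 CPM upward in knockouts and up to 4.51 CPM in controls.

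All 7 members passed the filter on low counts. Their log2 fold changes had a median of 1.50 with 5 of 7 above 0, where the median of all 15928 tested genes was -0.03 with 48.0% above 0. Without control replicate 2 the members' median was 1.30 with 6 of 7 above 0, beside -0.04 and 47.1% of all genes. At the adjusted threshold edgeR called no member among 0 of 15928 genes in all (0%), where 1377 genes had an unadjusted p under 0.05; without control replicate 2 it likewise called 0 of 16729, where 1499 had one. DESeq2 called 525 genes (3.30%) in the full set of libraries and 443 (2.65%) when control replicate 2 was left out, and Fcgr1 was the 1 member among them each time. Scaled by library totals alone, a setting chosen after seeing the data, the median over all genes shifted to 0.34 and the log2 fold changes of Fcgr2b and Fcgrt became -0.10 and 0.26; relative to that median both were still below 0.

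**Figure D2:**
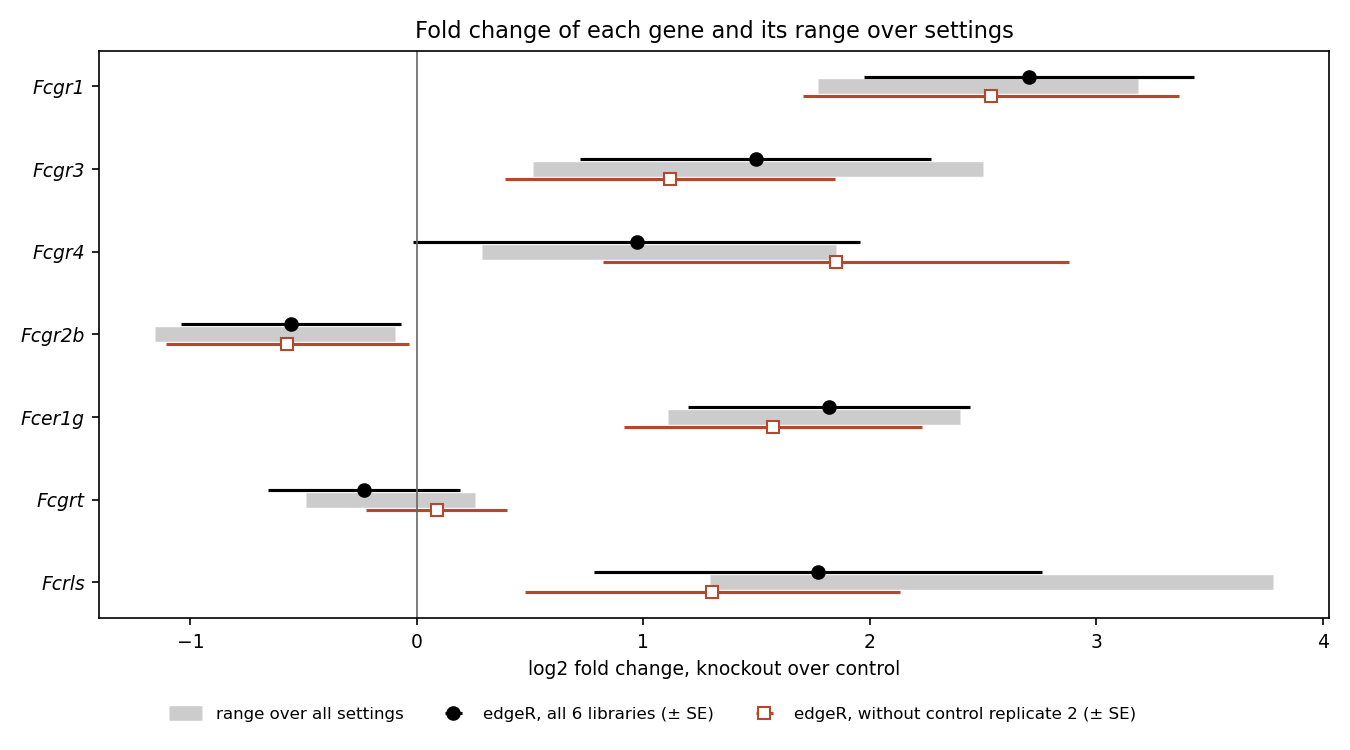
Log2 fold change of each gene, knockout over control, from edgeR with all 6 libraries (black points) and without control replicate 2 (open squares), with bars of 1 SE; grey bands span the values over all settings. Fcgr1 lies at 2.70 and 2.53, and Fcgrt is the gene whose band crosses 0.

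Levels of different genes were compared per length, in the authors' FPKM. Fcer1g had the highest FPKM of the 7 members in knockout replicates 1 and 2, at 110.2 and 166.3 FPKM, and Fcgrt in the other 4 libraries, at 134.5 FPKM in knockout replicate 3 and 93.8, 177.3 and 99.8 FPKM in control replicates 1 to 3. Of the 4 Fc gamma receptors, Fcgr3 took the largest part in 5 of the 6 libraries: 73.7%, 70.0% and 73.6% of their summed FPKM in knockouts and 65.9%, 29.1% and 61.9% in controls. Fcgr2b took 7.86%, 8.36% and 16.3% in knockout libraries and 26.7%, 39.6% and 26.6% in control libraries, so every knockout was below every control. In control replicate 2 Fcgr2b led, and Fcgr4 took 28.3%, against 4.43% to 11.1% in the other libraries. These shares depend on the gene lengths behind the FPKM. In CPM, without division by length, Fcgr2b was above Fcgr3 in every control (122.2, 76.7 and 40.3 against 90.3, 16.9 and 28.2 CPM). It was below Fcgr3 in every knockout.

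The ratio of activating receptors (Fcgr1, Fcgr3 and Fcgr4 summed) to Fcgr2b within a library, which needs no scaling between libraries, was 11.7, 10.95 and 5.15 in knockouts and 2.74, 1.53 and 2.76 in controls. The groups did not overlap. Both parts of the ratio were measured in whole tissue, so it is not the balance on a macrophage. The part of cell make-up in it was not tested. The mean log2 ratio was 3.12 ± 0.66 in knockouts and 1.18 ± 0.49 in controls (SD, n = 3 each), a difference of 1.95, and it was 1.66 to 2.33 with any 1 library left out. The size of the ratio in a library depends on the gene lengths behind the FPKM, and with CPM in place of FPKM the difference was 2.02. An exact two-sided permutation test gave p = 0.1, the smallest that 3 against 3 libraries allow, and 0.4 after Benjamini-Hochberg adjustment over 4 ratios. Without control replicate 2 the exact p was 0.2, again the smallest possible.

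The other 3 ratios overlapped between the groups. Fcer1g to the summed activating receptors was 1.16, 1.31 and 1.49 in knockouts and 0.957, 0.986 and 1.29 in controls (difference in log2 0.30, exact permutation p = 0.2, adjusted 0.4). The ratio thus stayed between 0.957 and 1.49 in all 6 libraries, while Fcer1g itself ran from 18.7 to 166.3 FPKM. Fcgr1 to Fcgr3, the high-affinity against the low-affinity activating receptor, was 0.128, 0.149 and 0.0776 in knockouts and 0.0317, 0.106 and 0.107 in controls (difference in log2 0.68, exact permutation p = 0.4, adjusted 0.533). Fcgr4 to Fcgr3 was 0.122, 0.159 and 0.0601 in knockouts and 0.0802, 0.973 and 0.0774 in controls (difference in log2 -0.79, exact permutation p = 0.8). Without control replicate 2 that difference was 0.42, of the opposite sign.

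**Figure D3:**
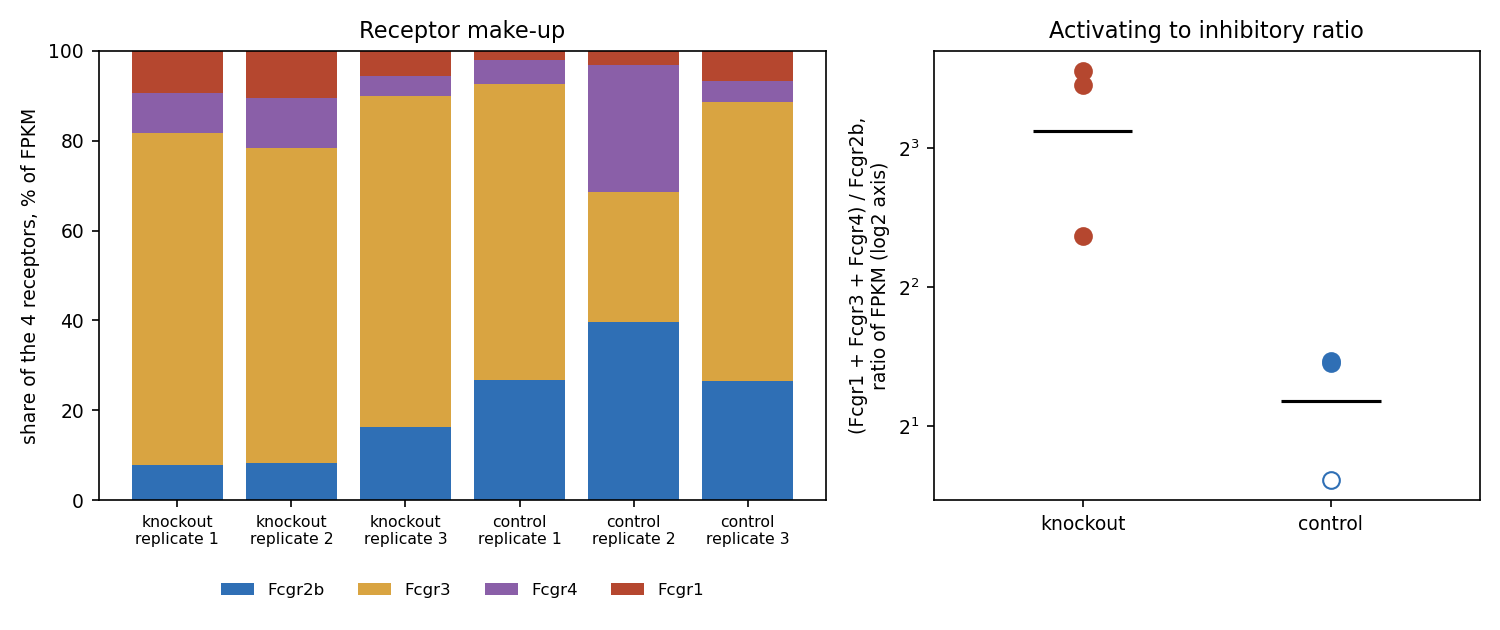
Left, the share of each of the 4 Fc gamma receptors in their summed FPKM, in percent, by library; right, the ratio of the activating receptors to Fcgr2b on a log2 axis, with points for libraries (open, control replicate 2) and lines for means of the log2 ratio. The knockouts lie between 5.15 and 11.7 and the controls between 1.53 and 2.76.

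Macrophage markers were measured in the same libraries. Of 15 markers, 14 had a log2 fold change above 0 with a median of 1.82, and without control replicate 2 it was 13 of 15 with a median of 1.41. Of 10 adipocyte markers, 5 had a log2 fold change above 0 with all libraries, with a median of -0.01, and 0 of 10 without control replicate 2, with a median of -0.55. Set against the mean log2(CPM + 1) of these markers in the same library, Fcgr3 lay at -0.26 in knockouts and -0.22 in controls, and Fcer1g at -0.56 in knockouts and -0.62 in controls, so that the difference between groups was -0.04 for Fcgr3 and 0.07 for Fcer1g. For Fcgr1 the difference was 0.43 and for Fcrls 0.60, with overlapping groups on this scale. Fcgr4 had a difference of -0.91: it lay at -0.91 in control replicate 2, where the macrophage markers were lowest, and at -4.43 to -3.20 in the other 5 libraries. Fcgr2b lay at -1.69 to -0.86 in knockouts and at -0.29 to 1.69 in controls, a mean difference of -2.13 with no overlap. The marker mean itself was 7.43, 7.67 and 6.09 in knockouts and 5.95, 4.60 and 5.66 in controls. A gene of unchanged level would therefore also lie lower in every knockout on this scale. The share of all genes without overlap on it was not computed. Fcgrt lay at 0.07 to 2.25 in knockouts and at 1.88 to 4.05 in controls, which overlapped. Lyz2, the gene that drives the Cre and 1 of the 15 markers, had 1945, 2334 and 376.4 CPM in knockouts and 299.4, 123.1 and 368.6 CPM in controls. These positions are descriptions, and the part of macrophage number in the receptor levels was not tested.

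Markers of other immune cells summed to less than the macrophage markers. The 8 natural killer cell markers summed to 8.77 to 10.7 CPM in knockouts and 5.36 to 8.59 CPM in controls, with a median log2 fold change of 0.33 over the 6 tested. The 8 mast cell markers summed to 25.8 to 59.3 CPM in knockouts and 10.02 to 40.7 CPM in controls, with a median of 1.80 over the 6 tested. The 8 dendritic cell markers summed to 30.8 to 34.9 CPM in knockouts and 15.7 to 42.0 CPM in controls, with a median of 0.17. The 8 T cell markers summed to 24.7 to 32.0 CPM in knockouts and 9.12 to 11.9 CPM in controls, with a median of 1.08. Of 5 tested markers of liver sinusoidal endothelium, which is rich in Fcgr2b, 1 had a log2 fold change above 0 with a median of -0.83, and 2 did without control replicate 2 with a median of -0.42. The 7 markers found, a list that includes Cd36, were not sparse as a sum. They summed to 4611, 4505 and 4494 CPM in knockouts and to 7718, 460 and 4501 CPM in controls, lowest in the library with the liver profile. Their mean log2(CPM + 1), which weighs each marker alike, was instead highest in that library. It was 3.53, 3.72 and 3.22 in knockouts and 3.77, 5.26 and 3.70 in controls. Clec4g, too low to be tested, had 0, 5 and 3 counts in knockouts and 0, 731 and 61 counts in controls. Among the tested markers, Stab2 had 7.65, 9.65 and 3.14 CPM in knockouts and 1.98, 26.8 and 4.00 CPM in controls. Fcna had 12.6, 11.7 and 10.4 CPM in knockouts and 46.2, 58.9 and 13.3 CPM in controls. Gpr182 had 13.2, 15.2 and 21.6 CPM in knockouts and 42.2, 28.1 and 18.9 CPM in controls. The part of each of these cell types in the receptor levels was not tested.

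**Figure D4:**
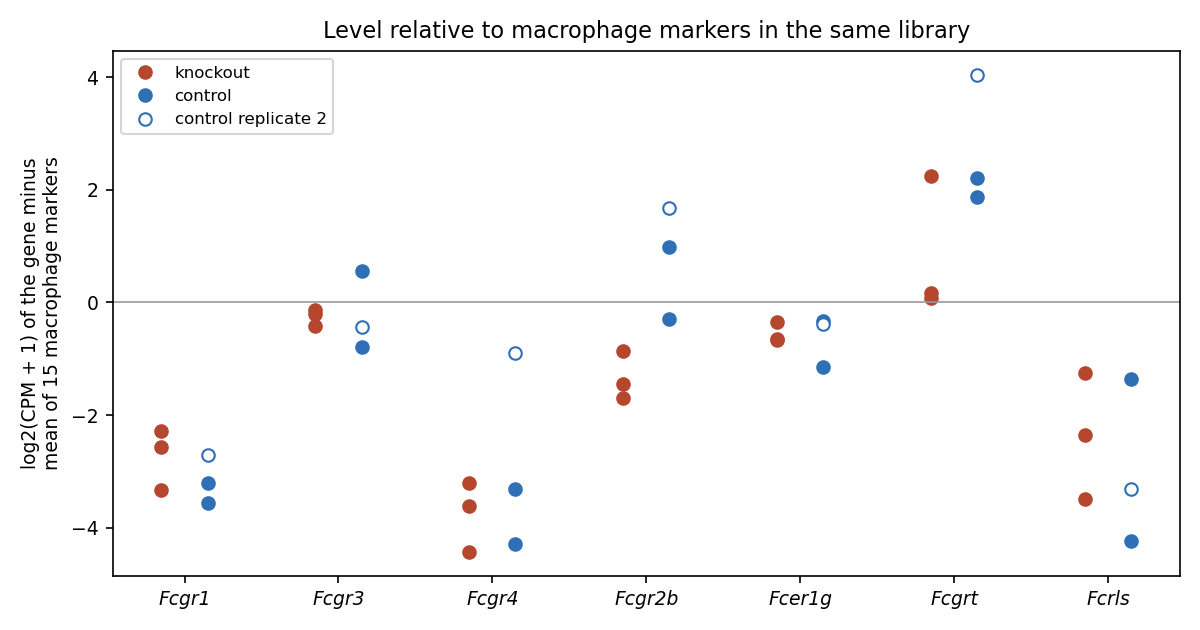
Log2(CPM + 1) of each gene minus the mean of 15 macrophage markers in the same library, with knockouts left of controls and 1 point per library (open, control replicate 2). Fcer1g and Fcgr3 lie near the markers in both groups, and Fcgr2b lies at -0.86 or lower in knockouts and at -0.29 or higher in controls. The marker mean is itself higher in every knockout than in every control, so a gene of unchanged level would also lie lower in knockouts.

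The genes whose profile over the 6 libraries was most like that of Fcer1g, by the root mean square difference of centred log2(CPM + 1) among 13073 genes, were Ccl9 (0.094), Kcnk13 (0.129), Dok3 (0.132), Slfn2 (0.151) and Bin2 (0.188). Fcgr3 stood at rank 19 with 0.285 and Fcgr1 at rank 157 with 0.476. Fcgr4 stood at rank 3456, Fcgr2b at rank 6501, Fcrls at rank 9070 and Fcgrt at rank 9544. Without control replicate 2, Ccl9 again came first with 0.095, and Fcgr4 stood at rank 77 with 0.333. For Fcgr2b the nearest gene was Clec4n (0.153) with all libraries and Ms4a4a (0.118) without control replicate 2, and for Fcgrt it was Gm2011 (0.075) and Podxl2.

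The kinases, adaptors and enzymes that act below the activating receptors had higher values in knockouts as a list. All 18 had a log2 fold change above 0, with a median of 2.01, and 17 of 18 without control replicate 2, with a median of 1.87. The groups of 10 of the 18 genes did not overlap, with knockouts above, where 9.54% of all tested genes had this. edgeR called none of them, with 13 at an unadjusted p under 0.05 and higher in knockouts, where 4.38% of all genes were. DESeq2 called 4 higher, among them Blnk, Lat2 and Plcg2, where it called 1.73% of all genes higher; without control replicate 2 it called 5, among them Blnk, Lat2, Syk and Btk, where it called 2.00%.

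Blnk, an adaptor that links Syk to phospholipase C in B cells and is also found in macrophages, had 64.8, 99.9 and 14.9 CPM in knockouts and 4.46, 5.28 and 6.31 CPM in controls, and its log2 fold change was 3.48 ± 0.71 (SE). Lat2, a membrane adaptor of mast cells, B cells and monocytes, had 32.7, 50.2 and 8.96 CPM in knockouts and 1.98, 0.447 and 2.71 CPM in controls. Plcg2, the phospholipase itself, had 16.6, 25.0 and 6.52 CPM in knockouts and 4.01, 2.68 and 4.73 CPM in controls. In each of these 3 genes all knockouts were above all controls, and knockout replicate 3 was the nearest to them. B cells use several of the same genes. Their 8 markers summed to 5.55 to 48.4 CPM in knockouts and 2.51 to 5.63 CPM in controls. The median log2 fold change of the 7 tested B cell markers was 2.69, and all 7 were above 0. The part of B cells in these values was not tested.

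Genes of the inhibitory relay, the phosphatases, Dok adaptors and ITIM receptors, also had higher values in knockouts. Of 12 genes, 11 had a log2 fold change above 0 with a median of 1.61, and likewise 11 of 12 with a median of 1.37 without control replicate 2. DESeq2 called 3 higher with all libraries (Dok2, Pirb and Cd72) and 3 without control replicate 2 (Dok2, Cd72 and Ptpn6), beside 1.73% and 2.00% of all genes in these fits. edgeR called none, with 5 at an unadjusted p under 0.05 and higher in knockouts, beside 4.38% of all genes. Dok2, an adaptor that damps Ras signalling in myeloid cells, had 46.5, 48.6 and 23.3 CPM in knockouts and 4.76, 7.33 and 11.1 CPM in controls. Pirb, an ITIM receptor for MHC class I, had 70.5, 121.4 and 26.7 CPM in knockouts and 21.2, 5.99 and 14.5 CPM in controls. Inpp5d, the phosphatase recruited by Fcgr2b, had a log2 fold change of 1.75 ± 0.79 (SE) and overlapping groups, and it was named for its role after its value was seen.

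The genes that build the phagocytic cup, the actin-driven membrane fold around a bound target, had the highest median of these 3 signalling lists. All 16 had a log2 fold change above 0, with a median of 2.40 and of 2.22 without control replicate 2, and 12 had knockouts above controls with no overlap, beside 9.54% of all tested genes. DESeq2 called 9 of the 16 higher with all libraries, beside 1.73% of all genes, and 11 without control replicate 2, beside 2.00%. edgeR called none, with 12 at an unadjusted p under 0.05 and higher in knockouts, beside 4.38%. Itgb2, the beta chain of complement receptor integrins, had 227.1, 369.0 and 54.8 CPM in knockouts and 19.9, 11.5 and 26.4 CPM in controls. Myo1f, a myosin of phagocytes, had 137.4, 217.4 and 25.5 CPM in knockouts and 7.27, 3.04 and 12.9 CPM in controls. Coro1a and Rac2, which control actin at the cup, had log2 fold changes of 2.17 ± 0.49 and 2.25 ± 0.58 (SE). The 15 macrophage markers, which share Itgam with this list, summed to 1543 to 6284 CPM in knockouts and 652 to 1457 CPM in controls, and their part in these values was not tested.

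**Figure D5:**
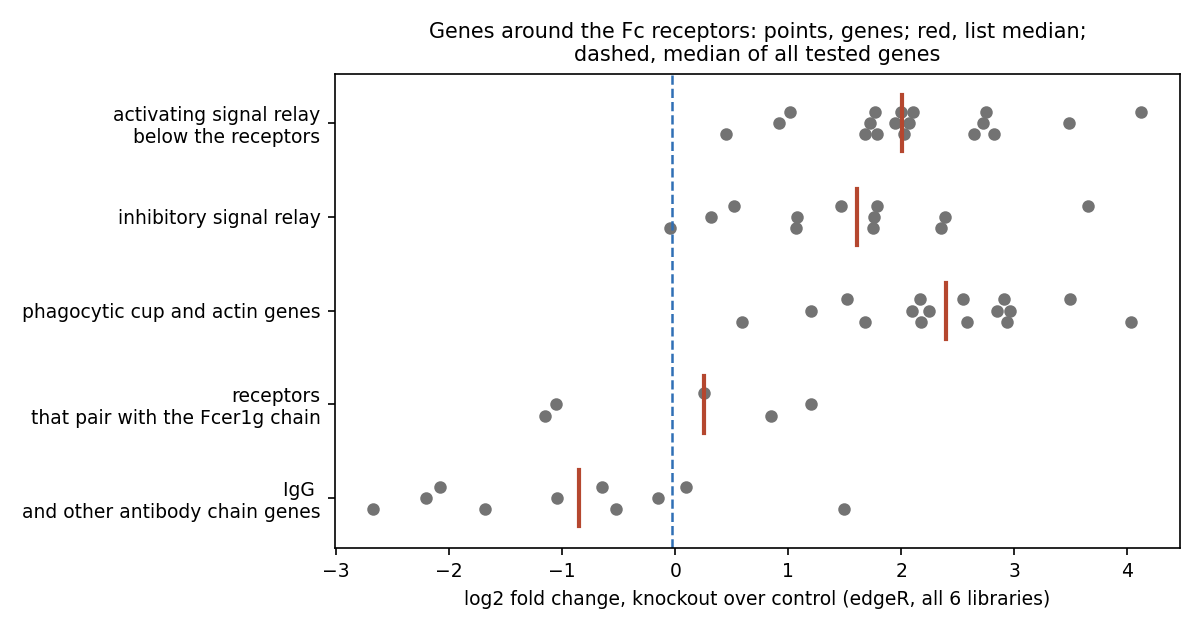
Log2 fold change, knockout over control, of the tested genes in 5 lists around the Fc receptors (points), with list medians in red and the median of all tested genes dashed. The 3 signalling and phagocytosis lists have medians of 2.01, 1.61 and 2.40, and the antibody chains one of -0.85.

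The listed antibody chain genes mostly had lower values in knockouts. The list joins chains of IgG, the ligand of Fc gamma receptors, with chains of IgM and IgA, so it does not measure IgG alone. Of 10 tested genes 2 had a log2 fold change above 0, with a median of -0.85, and without control replicate 2 it was 3 of 10 with a median of -0.29; neither edgeR nor DESeq2 called any. Ighg2c, a heavy chain of the IgG class that Fcgr1 and Fcgr4 bind, had 8.76, 20.6 and 4.66 CPM in knockouts and 52.0, 92.8 and 12.0 CPM in controls. Its log2 fold change was -2.20 ± 0.87 (SE), and -1.48 when control replicate 2 was left out. Ighm, the IgM heavy chain, had 511.0, 812.9 and 392.5 CPM in knockouts and 48.4, 25.7 and 537.1 CPM in controls, with control replicate 3 above 2 of the 3 knockouts. Highly similar heavy chain genes share sequence, so their counts are uncertain.

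Other receptors that signal through the Fcer1g chain were sparse. Of 12 listed, 5 were tested, with 3 above 0 and a median log2 fold change of 0.25; neither tool called any with all 6 libraries, and DESeq2 called Pira2 higher without control replicate 2. Clec4n, the lectin Dectin-2, had 1.70, 2.95 and 1.32 CPM in knockouts and 7.34, 3.40 and 1.69 CPM in controls. Clec4d, another lectin of the same cluster, had 12.9, 22.1 and 4.00 CPM in knockouts and 15.7, 0.358 and 0.807 CPM in controls. Of 10 other Fc receptors, 5 were tested and 4 had a value above 0. Fcmr, the IgM receptor of B cells, had 2.32, 2.77 and 0.621 CPM in knockouts and 0, 0 and 0.293 CPM in controls. Pigr, the epithelial transporter of IgA and IgM, was called lower by DESeq2 with all libraries, with 1368 CPM in control replicate 2, and was not called without that library.

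The annotated neighbours of the receptors were measured in the same libraries. Apoa2, an apolipoprotein gene of liver 3.19 kb from Fcer1g, had 8, 2613 and 153 counts in knockouts and 10, 129390 and 9494 counts in controls. Sdhc, which encodes a mitochondrial respiratory chain subunit, had a log2 fold change of -0.74 ± 0.48 (SE), with overlapping groups. Of the annotated neighbours of Fcgrt, Rcn3 and Nosip had every knockout above every control, as had 9.54% of all tested genes, with log2 fold changes of 1.38 ± 0.55 and 0.32 ± 0.27 (SE). The neighbours of Fcgr1 on its histone side (Hist2h3b and Hist2h2bb) had 0 counts in all 6 libraries.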

How the data were processed

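RNA sequencing counts of 3 knockout and 3 control libraries were used. Per the submitters' processing notes, reads were processed with fastp, HISAT2 2.0.5, featureCounts 1.5.0-p3 and StringTie 1.3.3b with genome build mm10. The sources used here do not give the strand setting or the annotation, so overlapping, antisense or near-identical genes may share reads. The authors deposited raw counts per gene, which were used for all tests, and FPKM values, which were used for ratios within a library, comparisons between genes and an alternative. Symbols were matched for 54409 of 54532 identifiers.

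Genes kept by filterByExpr (15928 with all 6 libraries, 16729 without control replicate 2) were tested with edgeR 4.0.16 (R 4.3.3; robust quasi-likelihood, TMM factors 0.982 to 1.25, and 0.559 in control replicate 2) with Benjamini-Hochberg adjustment at 0.05. Standard errors were taken as the log2 fold change divided by the square root of F. Ratios were tested by exact two-sided permutation over libraries (scipy 1.17.1). Alternatives were DESeq2 1.42.0, limma 3.58.1 (voom, and FPKM with pseudocounts of 1 and 0.1), other scalings and filters, leaving out each library in turn, and a term for the title number; scaling by library totals alone was added after seeing the data. The fits were tested on simulated data. Replicates are numbered in record order and no pair agreed within sampling noise (chi-square per degree of freedom 56.8 to 1112), so none was treated as a library deposited again; this does not show that the libraries come from separate mice.

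The 7 members and the 18 gene lists (175 of 177 listed genes found) were chosen with earlier results of these data known. Named genes are the members, up to 4 genes of smallest p per list, the nearest profiles, annotated neighbours, Pdcd1 and Lyz2, except where stated; some of these genes are not reported here. Likeness used genes with a mean log2 CPM of at least 1. Figures were drawn with matplotlib 3.10.9.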

Additional observations from a re-analysis of the deposited data

How the results depend on the processing

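Over 16 alternatives per gene, Fcgr1 kept its direction with log2 fold changes of 1.77 to 3.18, Fcgr3 of 0.51 to 2.50, Fcgr4 of 0.29 to 1.85, Fcer1g of 1.11 to 2.40, Fcrls of 1.29 to 3.78 and Fcgr2b of -1.16 to -0.10. Fcgrt turned positive without control replicate 2 (0.088 by edgeR, 0.081 by DESeq2) and with control replicate 1 as the control kept (0.12), and the cause was not tested. It was also positive with library totals alone (0.26), a setting in which the median over all genes was 0.34. With single libraries left out, the ranges were 2.16 to 3.18 for Fcgr1, 1.12 to 2.50 for Fcgr3, 0.29 to 1.85 for Fcgr4, 1.38 to 2.40 for Fcer1g, -0.87 to -0.10 for Fcgr2b, -0.49 to 0.09 for Fcgrt and 1.30 to 3.78 for Fcrls, and the edgeR counts of genes and of members called stayed at 0. DESeq2 called 525 genes in the full set of libraries and 443 when control replicate 2 was left out, with 1 member each time, and in those fits Fcgr1, at 2.69 and 2.52, passed the threshold that it missed in edgeR. The difference in the Fcgr4 to Fcgr3 ratio, -0.79 with all libraries, ranged from -1.41 to 0.42 with single libraries left out and was 0.39 with control replicate 1 as the control kept. The Fcgr1 to Fcgr3 difference ranged from 0.09 to 0.97. With the title number as a term, a term that separates the third library of each group, Fcgr1 was at 2.39, Fcer1g at 1.67 and Fcrls at 2.73, none past the threshold; within that number there is 1 library per group, so no test within it was made. In the remaining libraries the title numbers differ between knockouts and controls, so the term does not adjust for them. No paired analysis was possible because the labels give no shared replicate numbers. The exact test cannot go below a p of 0.1 with 3 libraries per group. Low genes carry more counting error than Fcgr3, among them Fcgr4 with 43 to 604 counts, Fcgr1 with 30 to 1170 and Fcrls with 16 to 999.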
